A study of Homo sapiens with 18 samples.

Results

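The genes described here encode 9 subunits of Polycomb repressive complex 1 (PRC1) in MDA-MB-231, a human triple-negative breast cancer cell line. They were taken by name from the annotation, out of 62703 genes in the files, and comprised the chromobox genes CBX2, CBX6, CBX7 and CBX8, the PCGF genes BMI1 (PCGF4) and PCGF2, the ligase genes RING1 and RNF2, and the polyhomeotic gene PHC2. All 9 were found and all 9 passed the filter on low counts in every comparison. The study profiled poly(A) RNA in 5 groups of 2 libraries each. Cells of 3 groups were transduced for 24 h with a pLKO.1 lentivirus and selected for 72 h in 2 µg/ml puromycin. Their hairpin was non-targeting (Control shRNA), or directed at EZH2 (shEZH2) or at E2F1 (shE2F1). The other groups were not transduced and received DMSO or 1 µM GSK126, a competitive inhibitor of the EZH2 methyltransferase, for 72 h. Each target had a single hairpin, so the effect of the target and any other effect of that hairpin cannot be told apart. Nothing in the sources used here says that the libraries of a group came from separate cultures, and p-values therefore measure the spread between these libraries, which may be technical.

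EZH2 is the enzyme of PRC2, the sister complex that methylates lysine 27 of histone H3 (H3K27). Canonical PRC1 reads that mark through the chromodomain of a CBX protein. It also holds a RING1 or RNF2 ligase that ubiquitinates histone H2A, a PCGF partner that sets the type of complex (BMI1 or PCGF2 in canonical PRC1), and a polyhomeotic protein such as PHC2 that lets complexes cluster. Variant PRC1 replaces CBX and polyhomeotic proteins with RYBP or YAF2 and can bind without the methyl mark. BMI1 was described first as an oncogene that cooperates with MYC, and its best known target is the CDKN2A locus.

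Each library held 13198932 to 20055550 expected counts, and shEZH2 replicate 1 was the shallowest. EZH2 stood at 153 and 181 CPM (reads scaled to 1e+06 per library) under the control hairpin and at 52.7 and 44.8 in shEZH2. E2F1 stood at 143 and 138 CPM under the control hairpin, at 26.0 and 22.5 CPM in shE2F1, and also low, at 62.5 and 32.3 CPM, in shEZH2. The targeted transcript was thus lower in both libraries of its own knockdown, and the shEZH2 libraries differed from each other in E2F1. VIM (1281 to 3522 CPM) and CD44 (680 to 828 CPM) were abundant in every library. VIM had a mean of 3370 CPM under the control hairpin and 1351 CPM in shEZH2. AXL, also mesenchymal, had means of 2037 CPM under the control hairpin, 577.6 CPM in shEZH2 and 438.1 CPM in shE2F1. The epithelial or luminal genes EPCAM (10.41 to 33.95 CPM), CLDN7 (4.898 to 53.81 CPM) and GATA3 (8.699 to 16.45 CPM) were also detected. CDH1 was at 0.18 to 9.829 CPM and FOXA1 at most at 0.2877 CPM. ESR1 and PGR, which a triple-negative line lacks, were at most at 0.216 and 0 CPM, while transcripts of the third receptor gene, ERBB2, were at 46.1 to 90.3 CPM, and CD3E of T lymphocytes was at 0 in all libraries.

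The 2 ligase genes and BMI1 varied most between groups, so the stretch before their first annotated base is shown (RefSeq windows on GRCh38.p14, all on the plus strand). RING1 lies at chr6:33208500-33212722, and its window spans chr6:33208250-33208499. RNF2 lies at chr1:185045526-185102603 with a window of chr1:185045308-185045525, and BMI1 at chr10:22321099-22331484 with a window of chr10:22320849-22321098. Capitals mark the only match to the E2F letters searched.
RING1: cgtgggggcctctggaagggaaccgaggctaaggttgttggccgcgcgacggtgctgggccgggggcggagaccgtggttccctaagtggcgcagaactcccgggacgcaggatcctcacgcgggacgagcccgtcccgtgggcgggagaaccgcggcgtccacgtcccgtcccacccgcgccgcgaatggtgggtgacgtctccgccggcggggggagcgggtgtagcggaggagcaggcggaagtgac
RNF2: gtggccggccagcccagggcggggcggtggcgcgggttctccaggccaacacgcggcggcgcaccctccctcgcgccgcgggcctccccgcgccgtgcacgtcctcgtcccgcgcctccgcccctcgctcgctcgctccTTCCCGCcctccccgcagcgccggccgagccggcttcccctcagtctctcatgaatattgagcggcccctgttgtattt
BMI1: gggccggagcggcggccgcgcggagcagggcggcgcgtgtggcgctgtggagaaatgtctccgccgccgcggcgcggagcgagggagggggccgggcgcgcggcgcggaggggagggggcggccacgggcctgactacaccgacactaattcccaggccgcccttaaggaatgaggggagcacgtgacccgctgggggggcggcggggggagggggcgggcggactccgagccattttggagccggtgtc

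The runs TTCCCGC or else TTCGCGC or else TTGCCGC or else TTGGCGC (E2F), and TTTGAA or else TTCGAA (the cell cycle homology region, CHR), were searched on both strands in the 250 bases before each RefSeq start. The promoter table held 9 windows for 7 of the 9 genes, and had none for CBX2 and CBX8. The E2F letters occurred once, in RNF2, at 111 to 105 bases before the RefSeq start. The stretch printed for RNF2 leaves out the last 32 bases of that window, which lie past the first base in GENCODE, and the match is 79 to 73 bases before that base. Of the 35116 windows in the table, 10.9% held the E2F letters. The CHR letters occurred in no window of these genes and in 14.3% of all windows. A match is a run of letters and not a measured binding site.

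Per transcript length, PHC2 was the most abundant of the 9 genes, at 120 to 196 TPM (transcripts scaled to 1e+06 per library), and the chromobox genes CBX2, CBX7 and CBX8 the least, at 4.71 to 11.5 TPM. RING1 had a median of 50.9 TPM over the 10 libraries, BMI1 47.6, PCGF2 43.8, CBX6 22.0 and RNF2 17.8. RING1 ranged from 22.4 to 78.8 TPM. The other genes lie at chr22:38861422-38872249 (CBX6), chr22:39120167-39152680 (CBX7), chr17:38733898-38749817 (PCGF2) and chr1:33323623-33431095 (PHC2), all on the minus strand. The lowest expected count of any of these genes was 188, for CBX7, where counting alone gives an error of 7.29%.

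RING1 and RNF2, the alternative ligase subunits, moved in opposite directions in both knockdowns. RING1 stood at 48.2 and 41.5 CPM under the control hairpin, at 26.6 and 22.6 CPM in shEZH2 and at 76.0 and 75.4 CPM in shE2F1. The 3 groups did not overlap, with shEZH2 lowest and shE2F1 highest. In bulk RNA, fewer cells expressing a gene and less of its RNA per cell cannot be told apart. RNF2 stood at 23.7 and 22.9 CPM under the control hairpin, at 36.8 and 39.6 CPM in shEZH2 and at 17.5 and 17.0 CPM in shE2F1. In CPM this is the reverse order and again without overlap. In TPM, RNF2 was at 18.4 and 15.6 under the control hairpin and at 14.8 and 18.3 in shE2F1, which overlapped. In the DMSO libraries RING1 was at 52.4 and 59.5 CPM and RNF2 at 24.7 and 19.8 CPM. With GSK126 RING1 was at 55.1 and 56.7 CPM and RNF2 at 25.4 and 21.3 CPM, so both genes overlapped between drug and vehicle.

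**Figure D1:**
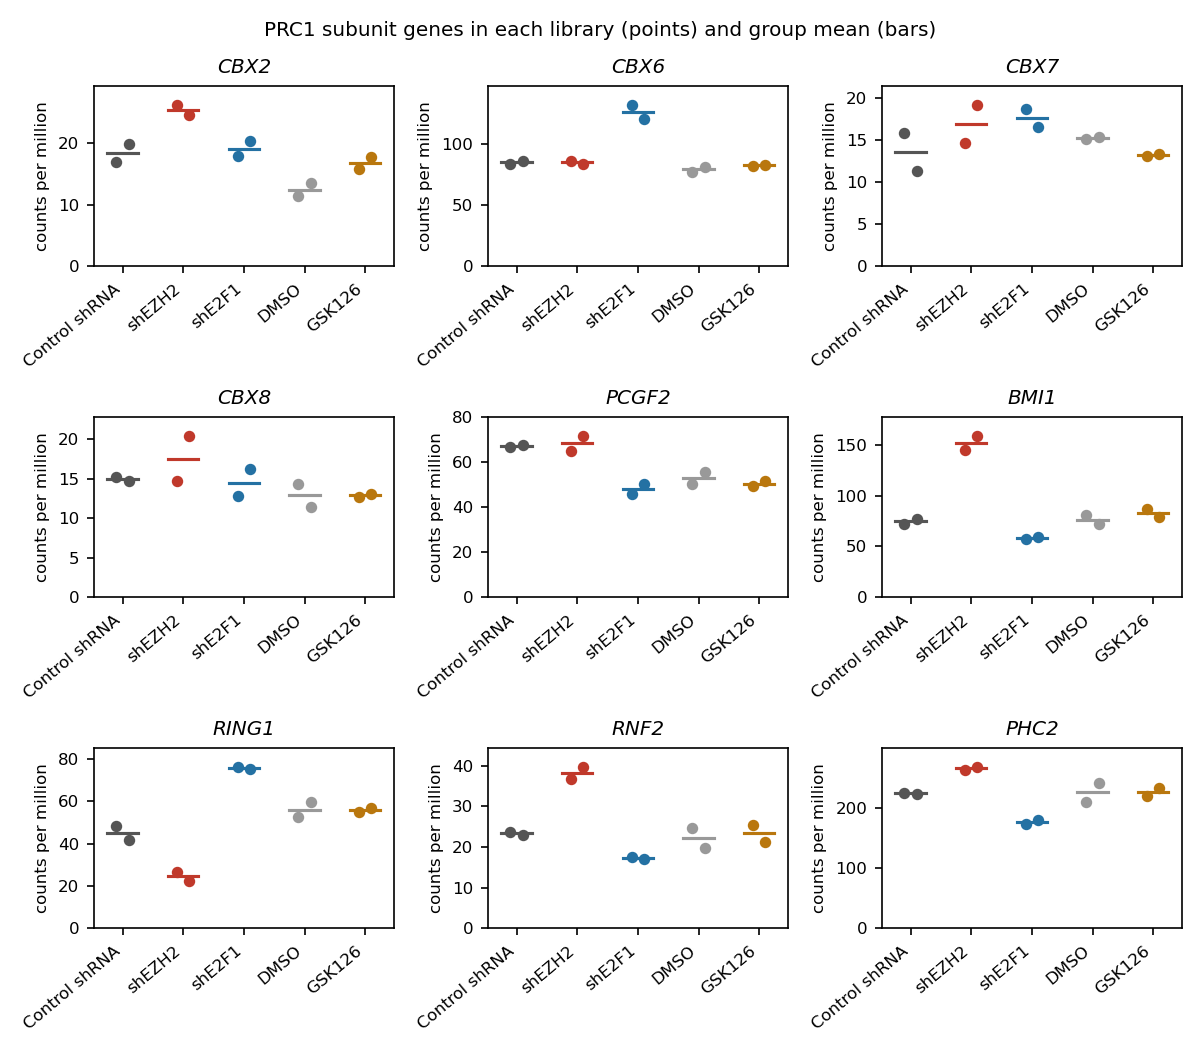
Normalised level of each of the 9 genes in CPM (vertical axis, from 0) in the 5 groups (horizontal axis); each point is a library and each bar the mean of 2 libraries. RING1 is lowest in shEZH2 (22.6 to 26.6) and highest in shE2F1 (75.4 to 76.0), RNF2 and BMI1 show the reverse order, and the DMSO and GSK126 points lie close to each other for most genes.

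A gene was called where edgeR's quasi-likelihood test gave a Benjamini-Hochberg adjusted p under 0.01 and the change exceeded 2-fold, the thresholds of the study. A second, wider rule asked only for an adjusted p under 0.05. Values per gene below are log2 changes with their standard errors (SE).

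In shEZH2 against control, BMI1 was the only 1 of the 9 genes called, and 4 genes were higher and 1 was lower by the wider rule. The calls covered 7.52% of the 15373 tested genes on the higher side and 10.7% on the lower side, and the wider rule 27% and 28.6%. The median log2 change of the 9 genes was 0.23, against -0.02 over all genes tested. BMI1 was at 71.9 and 77.4 CPM under the control hairpin and at 144 and 158 CPM in shEZH2. It rose by 1.01 ± 0.09 (SE; adjusted p = 1.13e-05), just past the 2-fold limit. The call depended on single libraries, since the change was 0.95 without Control shRNA replicate 1 and 0.96 without shEZH2 replicate 2. RNF2 rose by 0.70 ± 0.11 (adjusted p = 0.000386) and RING1 fell, with a log2 change of -0.88 ± 0.12 (adjusted p = 0.000132). RING1 did not pass 2-fold, although it did without shEZH2 replicate 1 (-1.01).

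CBX2 and PHC2 were the other genes of the 9 that passed the wider rule in shEZH2. CBX2, a reader that also compacts chromatin, was at 16.9 and 19.8 CPM under the control hairpin and at 26.1 and 24.4 CPM in shEZH2, and rose by 0.45 ± 0.14 (adjusted p = 0.0159). PHC2 was at 225 and 224 CPM under the control hairpin and at 264 and 268 CPM in shEZH2, and rose by 0.23 ± 0.08 (adjusted p = 0.0341). CBX6, CBX7, CBX8 and PCGF2 did not pass the wider rule. Their log2 changes were -0.01 for CBX6, with a 95% interval of -0.21 to 0.19, 0.30 for CBX7 (-0.12 to 0.73), 0.22 for CBX8 (-0.18 to 0.62) and 0.01 for PCGF2 (-0.20 to 0.23).

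Change in shEZH2 moved with the base composition of transcripts, with r = -0.239 across 15366 genes, which are not independent replicates. In shE2F1 r was -0.0182 and with GSK126 0.0222. RING1 had the highest GC content of the 9 genes (61.6%) and RNF2 and BMI1 the lowest (36% and 40.1%). With a spline correction for transcript GC content and length (the composition correction), the change of RING1 in shEZH2 was -0.36 (adjusted p = 0.0114), RNF2 0.55 (adjusted p = 0.0018) and BMI1 0.91 (adjusted p = 1.15e-05), so BMI1 was no longer called. Of the other GC-rich genes, CBX2 (0.77), CBX7 (0.67), PHC2 (0.60), CBX8 (0.54) and PCGF2 (0.36) then passed the wider rule, with adjusted p of 0.00126, 0.00625, 0.000294, 0.0267 and 0.0127 by edgeR, and CBX6 (0.22, adjusted p = 0.108) did not. The tally of the 9 genes by that rule went from 4 higher and 1 lower to 7 higher and 1 lower, and their median change from 0.23 to 0.55. The direction of RING1, RNF2 and BMI1 was therefore the same with and without it, whereas the size for RING1 was not.

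**Figure D2:**
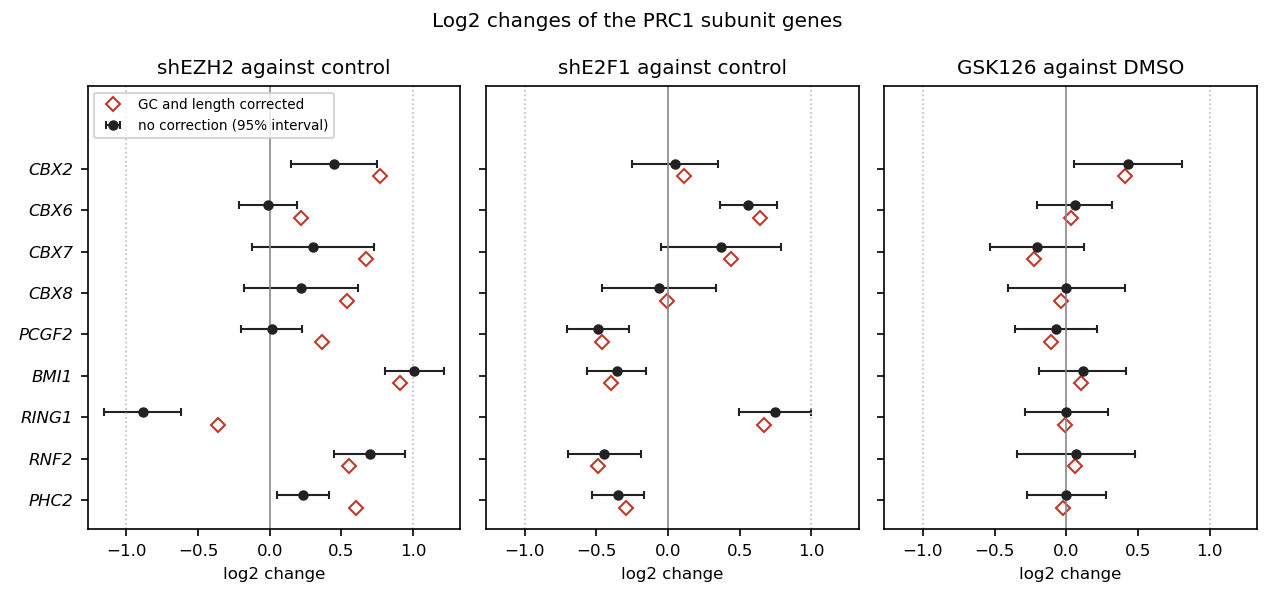
Log2 change of each gene (horizontal axis) in 3 comparisons; filled points with bars are edgeR estimates with 95% intervals, open diamonds are estimates after correction for GC content and length, and dotted lines mark 2-fold. In shEZH2 the correction moves RING1 from -0.88 to -0.36 and PHC2 from 0.23 to 0.60, while in shE2F1 and with GSK126 points and diamonds lie close together.

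In shE2F1 against control, none of the 9 genes was called by edgeR or by DESeq2, while 6 had an unadjusted p under 0.05. The same 6 passed the wider rule, 2 higher and 4 lower. Calls covered 5.6% of all tested genes on the higher side and 5.96% on the lower side, and the wider rule 21.1% and 23.7%. RING1 rose by 0.75 ± 0.11 (adjusted p = 0.000407). CBX6 was at 83.5 and 86.5 CPM under the control hairpin and at 132 and 120 CPM in shE2F1, and rose by 0.56 ± 0.09 (adjusted p = 0.000595). In CPM, CBX6 thus lay higher in shE2F1 than in every other group, since its highest level elsewhere was 86.5 CPM. The same held for RING1, while BMI1, RNF2 and PHC2 lay lower in shE2F1 than in every other group. The share of all genes that separate shE2F1 in this way was not computed.

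By the wider rule, which rests on counts, the genes that fell in shE2F1 included both canonical PCGF partners. PCGF2 was at 66.8 and 67.8 CPM under the control hairpin and at 46.1 and 50.3 CPM in shE2F1, and its log2 change was -0.49 ± 0.10 (adjusted p = 0.00218). BMI1 was at 57.5 and 59.5 CPM in shE2F1, below both control libraries, with a log2 change of -0.36 ± 0.09 (adjusted p = 0.00996). RNF2 changed by -0.45 ± 0.12 (adjusted p = 0.00927), and PHC2, at 174 and 180 CPM, by -0.35 ± 0.08 (adjusted p = 0.00561). CBX2, CBX7 and CBX8 did not pass, with log2 changes of 0.05, 0.37 and -0.06. The composition correction left RING1 at 0.67, CBX6 at 0.64 and RNF2 at -0.49.

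Compared directly, shEZH2 and shE2F1 differed by more than 2-fold in 3 of the 9 genes. BMI1 and RNF2 were called higher in shEZH2 and RING1 lower, where 10.4% of all genes were called higher and 12.9% lower. By the wider rule 5 of the 9 were higher and 2 lower, against 29.7% and 30.6% of all genes. RING1 differed by -1.63 ± 0.12 (adjusted p = 1.5e-06), BMI1 by 1.37 ± 0.09 (adjusted p = 9.53e-07) and RNF2 by 1.14 ± 0.11 (adjusted p = 1.06e-05). After the composition correction the differences were -1.04, 1.31 and 1.04, all still called, whereas with the effective length offset RNF2 differed by 0.91 and was not called. PHC2 (0.58), PCGF2 (0.50) and CBX2 (0.40) were also higher in shEZH2 and CBX6 (-0.57) lower by the wider rule, whereas CBX7 (-0.07) and CBX8 (0.28) did not pass it.

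The relation of each paralog to its family was read within each library. RING1 made up 70.7% and 69.6% of the summed TPM of RING1 and RNF2 under the control hairpin, 47.6% and 42.6% in shEZH2, and 83.8% and 81.2% in shE2F1. RNF2 had the higher TPM of the pair in both shEZH2 libraries and in no other library. TPM are not corrected for base composition. The log2 change of RING1 minus that of RNF2 in shEZH2 was -1.58, and -0.91 after the composition correction, which applied to the control TPM ratio of 2.35 gives 0.785 and 1.25, so which of the pair is more abundant in shEZH2 depended on that correction. The share of RING1 was 71.8% and 79.1% with DMSO and 76.3% and 74.7% with GSK126, which overlapped. The ratio of RING1 to RNF2 in TPM was 2.41 and 2.29 under the control hairpin, 0.908 and 0.744 in shEZH2, and 5.16 and 4.31 in shE2F1. The summed TPM of the pair was 57.5 and 52.6 in shEZH2 and 62.6 and 51.5 under the control hairpin, which overlapped, and 91.0 and 97.0 in shE2F1, above all others.

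Among the 6 PCGF genes, BMI1 held 28.9% and 29.3% of the family TPM in shEZH2 and 24.7% and 19.7% under the control hairpin. PCGF2, whose own level did not pass in shEZH2, held 14.9% in both shEZH2 libraries and 26.3% and 23.5% under the control hairpin. The ratio of BMI1 to PCGF2 in TPM was 1.93 and 1.97 in shEZH2, against 0.940 and 0.840 under the control hairpin and 0.791 and 0.905 in shE2F1. It was 1.28 and 0.973 with DMSO and 1.56 and 1.09 with GSK126, so the uncorrected TPM ratio was highest in shEZH2. TPM are not corrected for base composition. The log2 changes of BMI1 and PCGF2 in shEZH2 were 1.01 and 0.01, and 0.91 and 0.36 after the composition correction. Whether the ratio stands apart after that correction was not tested. In CPM the ratio was 1.08 and 1.14 under the control hairpin and 1.25 and 1.18 in shE2F1. The control and shE2F1 groups thus overlapped in TPM and did not in CPM. The summed PCGF TPM was 328 and 345 in shEZH2 and at most 206 in any other library.

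Among the 4 chromobox genes described here, CBX6 had the highest TPM in every library. It held 48.4% and 51.4% of their summed TPM under the control hairpin, 49.6% and 44.7% in shEZH2, and 57.5% and 54.3% in shE2F1. CBX2, CBX7 and CBX8 each stayed between 10.6% and 23.9% of that sum in every library. PHC2 held 85.7% to 91.7% of the polyhomeotic TPM in all 10 libraries, so per transcript length PHC1 and PHC3 were minor throughout. In CPM, PHC2 held 69.72% to 82.53% and PHC3 13.24% to 27.75%. CBX2 (chr17:79778148-79787983) and CBX8 (chr17:79792132-79801683) lie 4148 bases apart on opposite strands with no coding gene between them. Without the composition correction only CBX2 passed the wider rule in shEZH2. After that correction both passed, with log2 changes of 0.77 for CBX2 and 0.54 for CBX8 (adjusted p = 0.00126 and 0.0267 by edgeR). The difference between them was not tested.

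**Figure D3:**
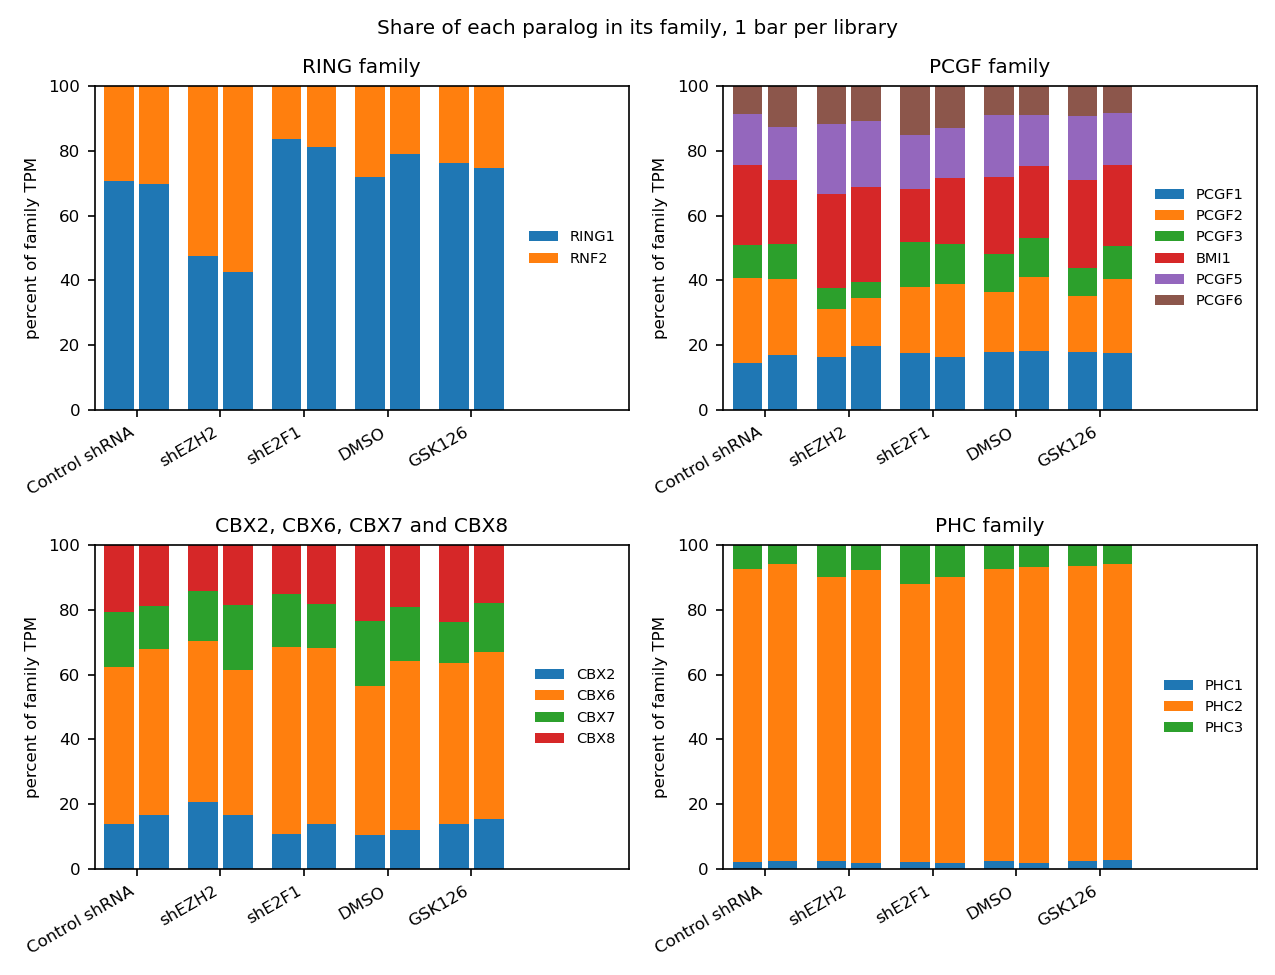
Percent of the summed TPM of each set of paralogs (vertical axis, 0 to 100) held by each gene, with 1 bar per library and 2 libraries per group (horizontal axis). RING1 drops from 69.6% and 70.7% under the control hairpin to 42.6% and 47.6% in shEZH2 and reaches 81.2% and 83.8% in shE2F1, and PHC2 dominates its family in every library.

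With GSK126 against DMSO, in fits without a term for replicate number, none of the 9 genes was called by edgeR or DESeq2. None passed the wider rule in these fits. Across all genes tested 0% passed either rule by edgeR, 577 of 14632 genes had an unadjusted p under 0.05, and DESeq2 called 11. CBX2 was the only 1 of the 9 with an unadjusted p under 0.05. It was at 11.4 and 13.5 CPM with DMSO and at 15.8 and 17.7 CPM with GSK126, without overlap, a log2 change of 0.43 ± 0.15 (adjusted p = 1 by edgeR). RING1 changed by less than 0.01, with a 95% interval of -0.29 to 0.29, BMI1 by 0.11 (-0.19 to 0.42) and RNF2 by 0.07 (-0.34 to 0.48). The changes measured in shEZH2 for these 3 genes lay outside these intervals. Differences between replicates correlated across genes between DMSO and GSK126 (r = 0.663). With a term for replicate number (a replicate block), CBX2 changed by 0.43 with an adjusted p of 0.00412 by edgeR. In that fit 1990 of 14632 genes passed the wider rule, so the absence of passing genes depended on leaving the term out.

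The difference between the effect of EZH2 knockdown and that of GSK126 was tested in a fit of all 10 libraries. No member was called by edgeR or DESeq2, 3 had an unadjusted p under 0.05, and the same 3 passed the wider rule, 2 higher and 1 lower. Calls covered 5.13% of 15773 tested genes on the higher side and 8.67% on the lower side, and the wider rule 16.9% and 19.7%. BMI1 differed by 0.90 ± 0.15 (adjusted p = 0.000916), RING1 by -0.87 ± 0.18 (adjusted p = 0.00253) and RNF2 by 0.64 ± 0.20 (adjusted p = 0.0246). After the composition correction, RING1 differed by -0.35 (adjusted p = 0.0632) and no longer passed, and the tally by the wider rule was 5 higher and 0 lower. CBX2 differed by 0.03 ± 0.21, with a 95% interval of -0.44 to 0.50. The knockdown and drug experiments also differed in transduction and selection, which cannot be told apart from the mode of EZH2 loss in this comparison.

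The wider set of PRC1 genes was described in the same fits. Of 5 other canonical genes none was called in shEZH2 by edgeR or DESeq2, and 3 had an unadjusted p under 0.05. By the wider rule PHC3 (0.81) and SCML2 (0.85) were higher and SCMH1 (-0.84) lower, against 27% and 28.6% of all genes. PHC1, a polyhomeotic paralog of PHC2, was called lower in shE2F1 (-1.02 ± 0.16, adjusted p = 0.000447), at 6.28 and 6.53 CPM against 13.6 and 12.3 CPM under the control hairpin. That call was lost after the composition correction (-0.96), with a mean count of at least 50 (-0.98), without Control shRNA replicate 1 (-0.95) and without shE2F1 replicate 1, and with the effective length offset the change was -0.55 (adjusted p = 0.064). SCML2 was called in shEZH2 against shE2F1 (1.41). Calls covered 10.4% of all genes on the higher side there, and 5.96% on the lower side in shE2F1 against control. The median change of these 5 genes was -0.09 in shEZH2 and -0.56 in shE2F1.

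Of 23 tested variant PRC1 genes, RYBP was called higher and FBRSL1 lower in shEZH2, against 7.52% and 10.7% of all genes, and 10 were higher and 5 lower by the wider rule, against 27% and 28.6%. RYBP, the subunit that occupies the place of CBX proteins in variant complexes, was at 40.9 and 40.6 CPM under the control hairpin and at 92.8 and 91.8 CPM in shEZH2, a log2 change of 1.17 ± 0.10 (adjusted p = 7.04e-06). FBRSL1, an AUTS2 paralog, was at 46.0 and 45.7 CPM under the control hairpin and at 26.3 and 19.3 CPM in shEZH2 (-1.03 ± 0.14, adjusted p = 0.000143). Neither was called after the composition correction (0.87 and -0.59). In shE2F1 none of the 23 was called by edgeR or DESeq2, 11 had an unadjusted p under 0.05, and 2 were higher and 8 lower by the wider rule, against 21.1% and 23.7% of all genes. E2F6, a repressor E2F of the PCGF6 complex, was called higher in shEZH2 against shE2F1 (1.13). It was the only call among the 23 in that comparison, where 10.4% of all genes were called higher.

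Among 13 tested genes that remove or antagonise the H2A mark, 3 were higher and 4 lower in shEZH2 by the wider rule, against 27% and 28.6% of all genes. KDM1B, a lysine demethylase kept in that list, was the only 1 called, where 7.52% of all genes were called higher. It was at 21.1 and 18.4 CPM under the control hairpin and at 71.8 and 72.6 CPM in shEZH2, a log2 change of 1.85 ± 0.11 (adjusted p = 1.23e-06). BAP1, an H2A deubiquitinase, was lower in shEZH2 by the wider rule (-0.50 ± 0.09, adjusted p = 0.000627) and its value was -0.13 after the composition correction. ASXL2, a partner of BAP1, was called in shEZH2 against shE2F1 (1.07) together with KDM1B (1.54), and ASXL2 was not after the composition correction (0.66). Calls in that comparison covered 10.4% of all genes on the higher side and 12.9% on the lower side. Of the 3 heterochromatin chromobox genes, which read a different methyl mark, none was called in any comparison by edgeR or DESeq2. In shEZH2 2 had an unadjusted p under 0.05. By the wider rule CBX1 was higher in shEZH2 (0.43), in shEZH2 against shE2F1 (0.42) and for knockdown minus drug (0.52). That rule covered 27%, 29.7% and 16.9% of all genes on the higher side. In the test of EZH2 knockdown against GSK126, RYBP (1.19), FBRSL1 (-1.10) and KDM1B (1.66) were called. Over all genes 5.13% were called higher and 8.67% lower in that test. After the composition correction RYBP (0.91) and FBRSL1 (-0.64) were not called. FBRSL1 also lost that call with the effective length offset (adjusted p = 0.0137), without shEZH2 replicate 2 (-0.89) and without DMSO replicate 1 (-0.96). With GSK126 no gene of these lists was called or passed the wider rule by edgeR without a replicate block or by DESeq2, and 1 had an unadjusted p under 0.05. CDKN2A and CDKN2B, the best known target locus, had 0 counts in all 10 libraries, where 3 counts correspond to 0.150 to 0.227 CPM. Neither gene could therefore be compared between groups, and why both were absent was not tested.

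**Figure D4:**
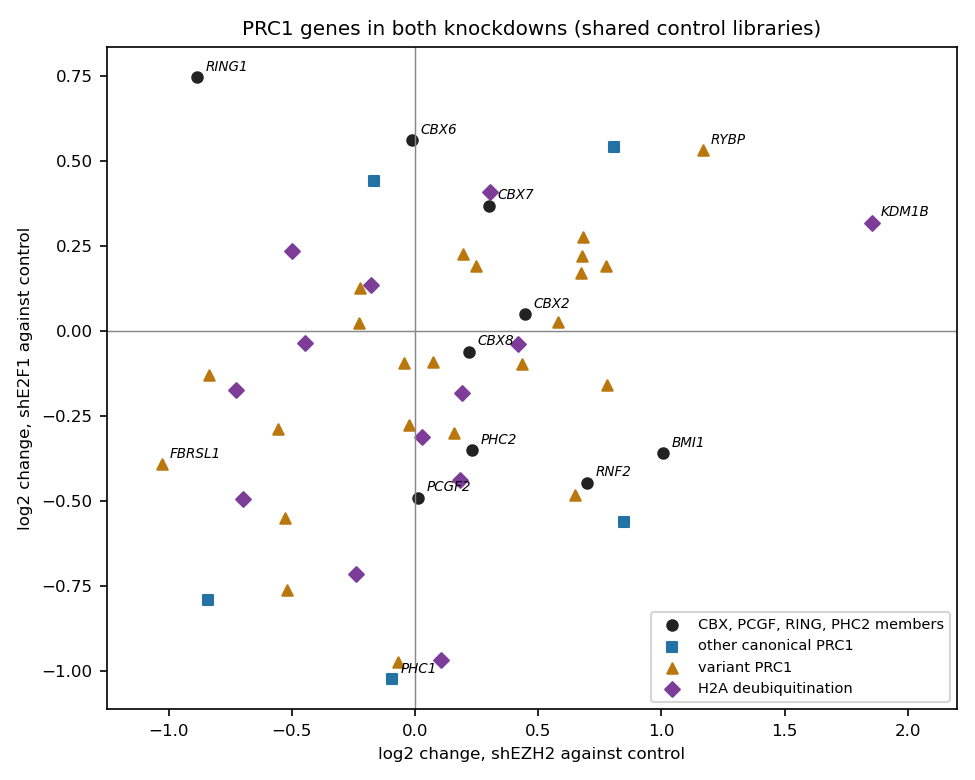
Log2 change in shEZH2 (horizontal axis) against log2 change in shE2F1 (vertical axis) for the 9 genes and 3 lists of related genes, 1 point per gene; both axes share the control libraries, so no correlation is read from the plot. RING1 lies at -0.88 and 0.75, while BMI1 and RNF2 lie on the opposite side at 1.01 and -0.36 and at 0.70 and -0.45.

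RING1 had the widest range of group means among the 9 genes, 1.62 on the log2 scale. By the root mean square difference of centred log2 CPM over the 10 libraries, the most similar of 14377 genes were GLMP (0.075), SHISA5 (0.088) and RNF41 (0.098). GLMP had means of 42.9 CPM in control, 22.7 in shEZH2 and 70.8 in shE2F1. These similarities describe the same 10 libraries and share their depth and base composition.

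BMI1 needs separate mention because it shares sequence with COMMD3-BMI1, a read-through with its upstream neighbour, over 20.8% of its 50-base words. The read-through had 0 to 35.4 expected counts per library, against 1104 to 2745 for BMI1, and the deposited uncertainty of the BMI1 count from read assignment was at most 15.4 counts. COMMD3 itself, chosen after its values were seen, was at 17.0 and 17.9 CPM under the control hairpin and at 38.4 and 48.3 CPM in shEZH2 (2.46-fold, adjusted p = 2.37e-05 by edgeR). The effective length of BMI1 differed between the control libraries (2018 and 2879 bases), and its TPM with it (51.0 and 36.6), while its counts were 1357 and 1289. CBX7, PCGF2 and PHC2 overlap exons on the opposite strand and the strand setting of the counting was not given in the sources used here, so reads of the overlapping genes may not be separated.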

How the data were processed

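RNA was sequenced from poly(A) libraries of MDA-MB-231 cells. Of 18 records, 8 repeated another value for value, which left 10 distinct libraries. The authors aligned reads and estimated abundance with STAR and RSEM (2.7.2b and 1.3.1 in the submitters' processing notes) on hg38. The deposited files hold expected counts and posterior mean counts per gene, TPM, and the effective length and posterior standard deviation, which were treated as signal values. Expected counts were rounded and 62625 of 62703 identifiers matched GENCODE. edgeR 4.0.16 (TMM scaling, filterByExpr, quasi-likelihood test, Benjamini-Hochberg adjustment over all genes tested) was fitted to the 6 knockdown libraries, the 4 drug libraries, and all 10 for the difference of effects. Limma 3.58.1 and R 4.3.3 were loaded with it. CPM were scaled over all 10 libraries. Related genes were compared per length in TPM. The fits were tested on simulated data. Alternatives were DESeq2 1.42.0, other size factors and filters, other sets of libraries, a replicate block, an offset for effective length, a spline correction for GC content and length, and leaving out each library. Intervals of 95% used the SE and the fit's degrees of freedom and cover the spread between 2 libraries a group.

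Every member was named. From other lists, every called gene was named, with others as examples chosen after their values were seen, and for the member with the widest range the 3 genes most alike over the libraries. The members and lists were chosen with earlier results of these data known. Some genes of these lists are not reported here.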

Additional observations from a re-analysis of the deposited data

Results flagged for a closer look

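For 2 genes the effect of EZH2 knockdown differed from that of GSK126 in edgeR's test of the difference at an adjusted p under 0.01. For BMI1 the knockdown effect exceeded the drug effect by 0.90 (log2), being higher in both shEZH2 libraries than in either control library. For RING1 the difference was -0.87, and it was lower in both shEZH2 libraries than in either control library. After correction for GC content and length the difference for RING1 was -0.35 (adjusted p = 0.0632 by edgeR), and for BMI1 0.82 (adjusted p = 0.000238). The groups held 2 libraries each, so no library was tested as standing apart within its group.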

How the results depend on the processing

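The number of the 9 genes called kept within 1.5 times its value in 73 of 84 recalculations. A number that stayed at 0 was also scored as kept, so this tally says little about stability. The number was 0 in the main fits of shE2F1 against control, GSK126 against DMSO and knockdown minus drug. In shEZH2 against control it was 1, and 0 without the filter on low counts, with the offset for effective length, and with the correction for GC content and length, with or without a replicate block. It ranged from 0 to 2 when single libraries were left out. With an adjusted p under 0.05 and no limit on fold it was 5 in shEZH2, 6 in shE2F1, 7 in shEZH2 against shE2F1 and 3 for knockdown minus drug. BMI1 in shEZH2 lost its call in 6 recalculations, all with log2 changes of 0.91 or more.

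Sign changes occurred in 52 of 716 recalculated log2 changes, for genes that were called in neither fit. CBX6 in shEZH2 was 0.01 with DESeq2, its size factors or the length offset, 0.0012 with all 10 libraries and 0.22 with the GC correction, and -0.04 to 0.03 without single libraries. The length offset gave -0.18 for CBX8 and -0.15 for PCGF2 in shEZH2, 0.11 for CBX8 in shE2F1, -0.28 for CBX8 in shEZH2 against shE2F1, and -0.16 for CBX8 and -0.10 for PCGF2 for knockdown minus drug. The GC correction gave 0.24 for CBX7 in shEZH2 against shE2F1 and 0.19 for CBX6 for knockdown minus drug. With GSK126, values near 0 changed sign: CBX8 was 0.01 with a mean count of at least 50, 0.00033 with all 10 libraries and 0.0015 with the length offset, RING1 0.01 with the higher mean count, RNF2 -0.01 with the length offset, and PHC2 -0.01 with DESeq2, its size factors or no filter, -0.0032 with the length offset and -0.02 with the GC correction. Without single libraries the ranges were -0.02 to 0.42 (CBX8) and -0.04 to 0.07 (PCGF2) in shEZH2, and -0.07 to 0.17 (CBX2) and -0.24 to 0.10 (CBX8) in shE2F1. They were -0.16 to 0.18 (CBX8), -0.08 to 0.08 (RING1), -0.08 to 0.25 (RNF2) and -0.09 to 0.10 (PHC2) with GSK126, -0.27 to 0.11 (CBX7) in shEZH2 against shE2F1, and -0.10 to 0.14 (CBX2) and -0.03 to 0.44 (CBX8) for knockdown minus drug. The cause was not tested.

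Replicate numbers are shared by the groups but no label ties them to a culture or day. Differences between replicates correlated across genes between DMSO and GSK126 (r = 0.663 over 11919 genes) and at -0.0814 to 0.205 for other pairs of groups, and there are only 2 pairs. With a replicate block the number of the 9 genes called changed in no comparison. CBX8 (0.001) and RING1 (0.0013) with GSK126 changed sign, and CBX2 was 0.43 with an adjusted p of 0.00412 by edgeR. Of the other lists, PHC1 (0.49), YAF2 (0.34), FOXK1 (-0.22) and CBX5 (-0.17) also passed the wider rule with GSK126 under the block. Their adjusted p were 0.00446, 0.0222, 0.00519 and 0.013 by edgeR. The wider rule then covered 1990 of all 14632 genes tested, 922 higher and 1068 lower. Over all genes, calls with GSK126 rose from 0 to 68 under the replicate block, and single libraries left out gave 37 to 43. Shares of a family moved by more than the spread between libraries in 60 of 75 recalculations with CPM in place of TPM, and the RING1 share in shEZH2 was then 39.1% against 65.7% in control. The group size of 2 libraries limits the precision of every change.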
